A study of Mus musculus with 2 samples.

Results

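The interferon-stimulated genes described here are 40 mouse genes, taken as a list of symbols, of the 32183 genes in the deposited count tables. All 40 were found by symbol, and each had at least 753 unique molecular identifiers (UMIs, the tags that count single captured RNA molecules) over all kept cells. The question was which cell types of a sympathetic ganglion carry these transcripts, in which order the genes stand in each type, and how many cells of each type carry a high summed level.

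The cells came from the celiac and superior mesenteric ganglia of mice, the sympathetic ganglia that supply the gut and other abdominal organs. The series names 20 animals aged 7 to 8 weeks, males and females in equal number, all in 1 group. No treatment, infection or interferon exposure is named, and the sources used here do not give strain, genotype or which animals went into which library. Ganglia were dissected after isoflurane anaesthesia, digested and triturated, and such handling is itself known to change the expression of stress and immediate early genes. The 2 libraries were made with 10x Genomics 3' v3.1 chemistry, and nothing says that they came from separate animals. With the library fitted as a block, p-values measure only how far differences between groups of cells varied between these 2 libraries. That variation may be technical. The median barcode had 6483 UMIs in library 1 and 6498 in library 2. After predicted doublets were removed, 12030 and 11655 cells remained, in 23 clusters. The libraries shared 64 barcodes, and of the 60 shared barcodes kept in both, 18 fell in the same class in each library.

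Interferons are cytokines released when a cell senses viral or other foreign nucleic acid. Type I interferon acts through its receptor, the Jak kinases and a complex that includes Stat2 and Irf9 and binds the interferon-stimulated response element (ISRE) in promoters, whereas interferon gamma acts mainly through the gamma-activated sequence (GAS). The targets block viral replication, sense nucleic acid, load peptides for antigen presentation and feed back on the pathway.

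Promoter sequence is shown first, because the ISRE is the element through which many of these genes are known to be switched on together. RefSeq promoter windows (GRCm38.p6, 300 bases, from 250 before to 50 after a start) were matched by symbol for 31 of the 40 members. As ISRE letters, GAAA followed by any 2 bases and GAAA again was searched on both strands and found in a window of 18 of those 31 members, or 58.1%, against 3.99% of 27025 genes with a window. The GAS letters TTCNNNGAA, also read on both strands, were in the windows of 8 of the 31, or 25.8%, against 9.55% of all genes. A match describes letters only, and the 2 motifs can overlap in a window. The stretches below are printed 5′ to 3′ on the gene's own strand with every ISRE match in capitals, where TTTC at the left of a match means that it reads on the opposite strand. They stand at chr19:34640760-34640838 (plus strand) for Ifit1, chr19:34583348-34583441 (plus strand) for Ifit3, chr4:156200850-156200921 (minus strand) for Isg15, chr12:26456538-26456597 (minus strand) for Rsad2, chr8:71537562-71537627 (minus strand) for Bst2, chr3:142620579-142620638 (plus strand) for Gbp2 and chr11:58199497-58199555 (plus strand) for Igtp.
Ifit1: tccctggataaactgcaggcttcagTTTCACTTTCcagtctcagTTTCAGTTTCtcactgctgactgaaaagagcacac
Ifit3: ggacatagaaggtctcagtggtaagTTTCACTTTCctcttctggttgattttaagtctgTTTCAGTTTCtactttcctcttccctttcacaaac
Isg15: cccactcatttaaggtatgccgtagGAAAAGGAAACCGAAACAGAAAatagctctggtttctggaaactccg
Rsad2: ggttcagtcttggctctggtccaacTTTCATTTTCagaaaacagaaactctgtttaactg
Bst2: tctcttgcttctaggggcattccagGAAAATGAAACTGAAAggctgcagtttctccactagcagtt
Gbp2: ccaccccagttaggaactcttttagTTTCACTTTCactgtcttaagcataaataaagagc
Igtp: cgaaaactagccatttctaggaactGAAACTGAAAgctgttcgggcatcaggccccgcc

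Ifit1 and Ifit3 each carry 2 separate matches, and the Ifit3b window holds the same stretch of letters as that of Ifit3. In Isg15, 3 matches overlap in a single run that starts 78 bases before the gene's start. Members without these letters in their windows were Cmpk2, Ifi209, Ifi35, Ifi44, Ifi47, Ifit2, Irf7, Irf9, Oasl2, Psmb8, Psmb9, Tap1 and Xaf1. Several members also lie side by side: Ifit2, Ifit3, Ifit3b and Ifit1 follow each other on chromosome 19 between 34550694 and 34650009, Gbp5, Gbp7, Gbp3 and Gbp2 on chromosome 3 between 142493978 and 142638008, and Psmb9, Tap1 and Psmb8 on chromosome 17 between 34181987 and 34201454 (mm10).

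Near-identical copies limit some members, because the libraries read transcript ends. Of the 60-base words in the last 500 transcript bases, 74.6% of those of Gbp6 also occur in Gbp9, Gbp10 or Gm43302, 61.5% of those of Ifi209 occur in Ifi214, and 51.2% of those of Oas1a occur in Oas1g. The share was 12.9% for Ifit3, with Ifit3b, and 10.2% for Ifi213, with Ifi208. Values of these 5 genes are uncertain to that extent.

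Levels are given as CPM: the UMIs of a gene summed over the cells of a class in a library and scaled to the same total for each class. They come from a random share of 0.5 of each cell's UMIs. The remaining UMIs, without the members and the other interferon genes, formed the clusters, so a class was not set by the genes described. The values are not scaled by transcript length and compare genes only as UMI counts. Classes were named from markers outside the list, and the short names stand for macrophage-like, neuron-like and so on. The name "glia" covers 5 clusters with markers of satellite glia and of non-myelinating Schwann cells, which were merged after the marker scores were seen, since the 2 lists scored close in 2 clusters. The dendritic class was cluster 18 alone, led by Wdfy4, Xcr1 and Clec9a. It did not include the unnamed cluster 15, which had Cd209a among its top 10 genes. The macrophage class was cluster 2 alone. The unnamed cluster 19, where macrophage markers scored highest, was left out and held 3604 and 3254 CPM of the members. In all, 11 classes with at least 50 cells in each library entered the tests.

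Summed over the 40 members, macrophages, dendritic cells and blood endothelium stood highest and neurons lowest. Macrophages held 5843 CPM in library 1 and 4921 in library 2 (mean 5382 ± 652, SD, n = 2), dendritic cells 4780 and 4955, and endothelium 4544 and 4123. Glia followed at 3732 and 3418 CPM, beside T and NK cells at 3472 and 3612. Those 2 classes overlapped between libraries, as did macrophages and dendritic cells, so their order within each pair is not set. Mast cells, at 1652 and 2580, differed most between the libraries for their mean. Fibroblasts held 1568 and 1538 CPM, perineurial and epineurial cells 1352 and 1549, myelinating Schwann cells 998 and 953, mural cells 908 and 948, and neurons 848 and 714. The range from the lowest class to the highest is wide against the SD of any class.

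**Figure D1:**
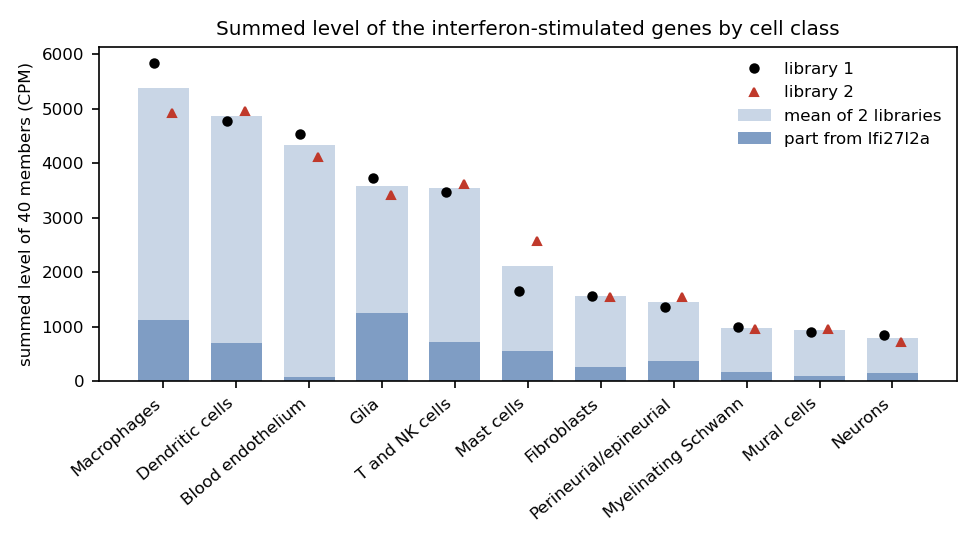
Summed level of the 40 members in CPM (vertical axis) in 11 classes (horizontal axis), as the mean of 2 libraries (bars), the values of each library (points) and the portion from Ifi27l2a (dark bars). Macrophages stand at 5843 and 4921 CPM and neurons at 848 and 714, and the dark portion is widest in glia and nearly absent in endothelium.

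Ifi27l2a, which encodes a small membrane protein strongly induced by interferon, supplied 34.8% of the glial sum and 20.8% of that of macrophages, but 1.81% of that of endothelium. Its level was 1356 and 1131 CPM in glia and 1238 and 998 in macrophages, against 76.6 and 80.0 in endothelium, and the endothelial libraries lie far below all others of the leading classes. Without it, glia fell to 2375 and 2287 CPM, below T and NK cells at 2549 and 3092, while endothelium at 4468 and 4043 stayed level with macrophages at 4605 and 3923.

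Genes known to rise during tissue digestion differed between the classes as well. A list of 20 such genes summed to a mean of 19326 CPM in endothelium, 16831 in macrophages, 14361 in fibroblasts, 3932 in glia and 2196 in neurons, and 18 of the 20 were higher in macrophages (30.2% of all genes tested were higher there), 18 in endothelium (28.6%) and none in glia (32.6%). The part of handling in the members' levels was not tested.

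For each member, each class was compared with the mean of the other 10 classes in edgeR's quasi-likelihood test, with the library as a block and Benjamini-Hochberg adjustment over the 16332 genes that passed the filter on low counts, all 40 members among them. These 11 contrasts share their samples and are not independent. In macrophages, 37 of the 40 members were higher and none lower, where 30.2% of all genes tested were higher and 14.5% lower. In endothelium 35 were higher (background 28.6%) and 1, Ifi27l2a, was lower (16.2%). Dendritic cells had 29 higher (22.6%) and 6 lower (16.0%), glia 24 higher (32.6%) and 4 lower (16.8%), and T and NK cells 14 higher (8.55%) and none lower (6.99%). In neurons none was higher (35.2%) and 31 were lower (23.6%), and in mural cells (22.3% and 13.7%) and myelinating Schwann cells (13.6% and 7.74%) none was higher and 26 lower in each. Fibroblasts had 5 higher (31.3%) and 12 lower (17.6%), or 4 and 18 when scaled by total UMIs alone, perineurial and epineurial cells 2 higher (26.4%) and 15 lower (15.1%), and mast cells 2 higher (6.79%) and 3 lower (2.93%). Each count of 0 was also 0 at an unadjusted p under 0.05 and in DESeq2. The median log2 difference of the members was 1.88 in macrophages (0.13 over all genes tested), 1.49 in dendritic cells (-0.11), 1.36 in endothelium (0.11), 0.47 in glia (0.14) and -1.63 in neurons (0.17).

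**Figure D2:**
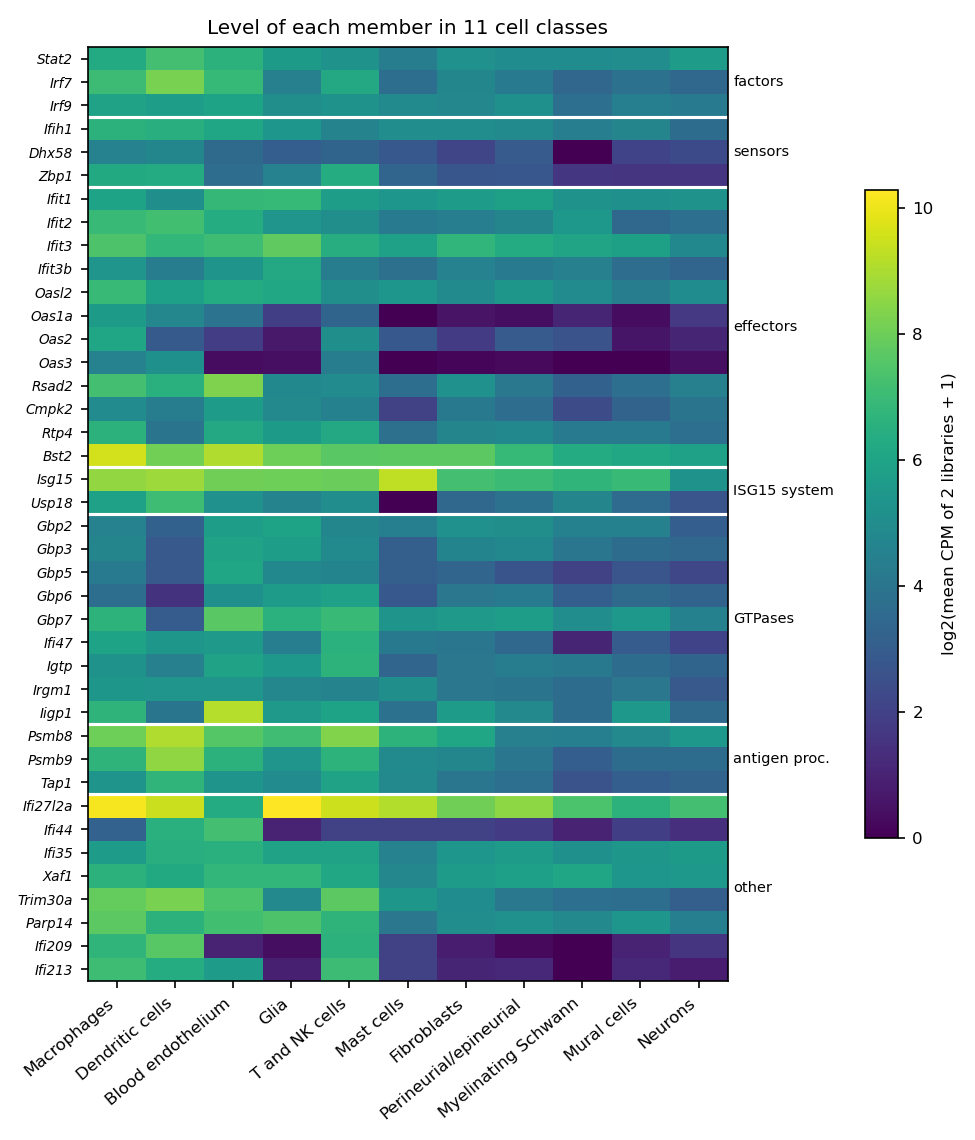
Level of each of the 40 members (rows, grouped by role) in 11 classes (columns), as log2 of the mean CPM of 2 libraries plus 1. Ifi27l2a, Bst2 and Isg15 are bright in most columns, whereas Oas3, Ifi209 and Ifi213 are brighter in the macrophage and dendritic columns than in those of glia and neurons.

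Among the transcription factors, Irf7, which drives the second wave of type I interferon genes, was highest in dendritic cells at 271 and 324 CPM. It stood at 138 and 125 CPM in macrophages and at 134 and 100 in endothelium, which overlap, and at 21.9 and 20.4 in glia. Irf7 was 3.90 ± 0.12 (log2, SE) higher in dendritic cells and 0.76 ± 0.17 lower in glia than in the other classes (edgeR, adjusted p = 1.2e-52 and 8.9e-05). Stat2, a subunit of the ISRE-binding complex, had 121 and 176 CPM in dendritic cells, 96.6 and 95.5 in endothelium, 46.9 and 47.6 in glia and 46.4 and 52.8 in neurons. Neurons thus overlapped glia for Stat2, and its log2 difference in neurons, -0.13 ± 0.14, did not pass the test (adjusted p = 0.46, edgeR). Irf9, the DNA-binding subunit, differed little among endothelium (63.5 and 58.2 CPM), macrophages (59.7 in both) and dendritic cells (48.6 and 59.5).

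The sensors split by cell type. Ifih1, a receptor for long double-stranded RNA, had 96.5 and 94.6 CPM in macrophages and 79.0 and 99.4 in dendritic cells, with 57.8 and 73.5 in endothelium and 12.98 and 9.89 in neurons. Zbp1, which binds Z-form nucleic acid and can start necroptosis, had 98.03 and 65.03 CPM in T and NK cells, 80.2 and 79.0 in dendritic cells and 79.9 and 68.7 in macrophages. Those 3 immune classes overlapped, and endothelium, at 11.4 and 11.9, stood below glia at 23.5 and 21.3. Dhx58, a regulator of RNA sensing, was low throughout, with 24.2 and 21.3 CPM in macrophages and 20.3 and 29.7 in dendritic cells.

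Of the 12 antiviral effectors, all 12 were higher in macrophages, 10 in endothelium, 8 in dendritic cells and 7 in glia than in the other classes, where 30.2%, 28.6%, 22.6% and 32.6% of all genes tested were higher. The Ifit genes, whose proteins bind foreign RNA caps and translation factors, did not share 1 pattern although they are neighbours. Ifit3 was highest in glia, with 219 and 221 CPM, against 195 and 141 in macrophages, 151 and 122 in endothelium and 27.5 and 26.6 in neurons. Ifit3b was also highest in glia, at 72.6 and 71.1, and Ifit1 was level between glia (124 and 108) and endothelium (138 and 91.6). Ifit2 was instead highest in dendritic cells (145 and 140 CPM) and macrophages (144 and 96.5), with 39.5 and 39.7 in glia. The 2 glial values lie below every library of dendritic cells, macrophages and endothelium. Ifit3 was 1.41 ± 0.07 higher on the log2 scale in glia than in the other classes (adjusted p = 1.3e-34, edgeR), while for Ifit2 the glial difference was 0.15 ± 0.12 (adjusted p = 0.31).

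Rsad2, which encodes the radical SAM enzyme viperin, was highest in endothelium, with 316 and 314 CPM. Macrophages held 175 and 123, dendritic cells 93.7 and 90.1, fibroblasts 30.6 and 41.0 and glia 24.8 and 28.1. Endothelium stood apart from every other class in both libraries, with a mean 2.12-fold that of macrophages, the next class. It was 3.62 ± 0.10 above the mean of the other classes on the log2 scale (adjusted p = 2.7e-58, edgeR). Cmpk2, the neighbouring gene of a nucleotide kinase, was also highest there at 47.2 and 49.4 CPM. Bst2, or tetherin, which holds budding virions at the cell surface, was highest in macrophages (833 and 714) and then in endothelium (576 and 490), with no overlap between the 2.

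The oligoadenylate synthetases, which make the second messenger that activates RNase L, were mostly immune. Oas3 had 30.5 and 39.9 CPM in dendritic cells and 24.0 and 21.3 in macrophages, and under 0.5 in endothelium, glia, fibroblasts and neurons. Oas2 had 67.0 and 67.1 CPM in macrophages against 5.65 and 7.43 in dendritic cells and 0.744 and 0.485 in glia, and Oas1a had 42.9 and 51.7 in macrophages and 14.3 and 13.7 in endothelium. Their relative Oasl2 was broader: macrophages held 126 and 118 CPM, endothelium 78.1 and 79.7, glia 72.1 and 70.8 and neurons 29.4 and 33.1. Rtp4, a transmembrane chaperone with antiviral activity, stood at 108 and 86.8 in macrophages and 15.8 and 13.01 in dendritic cells.

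In the ISG15 system, Isg15, a ubiquitin-like protein, was the one member that was highest in mast cells, at 546 and 702 CPM. Macrophages held 450 and 340 and dendritic cells 429 and 434, which overlap, and neurons 48.2 and 26.6. The deficit in neurons was -2.85 ± 0.11 on the log2 scale (adjusted p = 2.2e-43, edgeR). Mast cells numbered 58 and 65, and their dissociation genes summed to a mean of 39039 CPM, the highest of the 11 classes. Usp18, the protease that removes ISG15 and damps receptor signalling, was highest in dendritic cells at 117 and 153, against 61.97 and 53.3 in macrophages.

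The interferon-inducible GTPases, which attack the membranes of intracellular pathogens, differed between endothelium and dendritic cells. All 9 were higher in endothelium (28.6% of all genes tested), 7 in glia (32.6%) and 7 in macrophages (30.2%), and all 9 were lower in neurons (23.6%). In dendritic cells 2 were higher (22.6%) and 5 lower (16.0%). The lower calls there depend on the clustering: over all 40 members they numbered 6, but 3 at a clustering resolution of 0.5 or 2 and 2 with predicted doublets kept. With doublets kept the class also held other cells, 343 and 368 against 137 and 163. The lower calls therefore describe the Xcr1 and Clec9a cells of cluster 18. Iigp1, an immunity-related GTPase, had 604 and 530 CPM in endothelium, 120 and 82.5 in macrophages, 44.9 and 45.5 in glia and 13.6 and 16.7 in dendritic cells. Endothelium was 4.35 ± 0.07 above the mean of the other classes on the log2 scale (adjusted p = 1.3e-79, edgeR), and its lower library was far above every library of another class. Among the guanylate-binding proteins, Gbp7 had 205 and 191 CPM in endothelium, 92.1 and 96.3 in glia and 5.65 and 8.36 in dendritic cells. Gbp2 was highest in glia (57.9 and 64.1), next to endothelium (50.4 and 52.5), and Gbp5 was highest in endothelium (62.01 and 68.1). Gbp3 had 62.997 and 55.4 CPM in endothelium and 50.96 and 54.2 in glia, and Gbp6 had 51.03 and 49.8 in glia and 32.7 and 82.8 in T and NK cells. Irgm1, an immunity-related GTPase that regulates the others of its family, had 50.7 and 34.8 CPM in macrophages, 51.9 and 28.8 in dendritic cells and 43.2 and 36.7 in endothelium, which overlap, against 28.6 and 23.3 in glia and 8.34 and 4.09 in neurons. Igtp and Ifi47 had their highest means in T and NK cells, a class of 50 and 57 cells, at 106 and 94.6 and at 81.7 and 106 CPM.

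The antigen-processing members, 2 immunoproteasome subunits and a peptide transporter subunit, were highest in dendritic cells. Psmb8 had 586 and 468 CPM there, 302 and 343 in T and NK cells and 267 and 253 in macrophages. Psmb9 had 384 and 383 in dendritic cells, 109 and 92.7 in macrophages and 39.997 and 39.1 in glia. Dendritic cells stood clear of every other class for both, and for Tap1, at 102 and 110 CPM. The log2 difference for Psmb9 from the mean of the other classes was 4.16 ± 0.10 (adjusted p = 1.2e-62, edgeR).

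Of the remaining members, Ifi44, a cytoplasmic protein of uncertain mechanism, was found in endothelium at 156 and 135 CPM and in dendritic cells at 85.8 and 98.5, but at 11.7 and 4.98 in macrophages and about 1 in glia (1.02 and 1.11). The macrophage libraries are below both dendritic libraries. Ifi209 and Ifi213 belong to the family of nuclear DNA-binding proteins that includes Ifi204. Ifi209 had 174 and 215 CPM in dendritic cells, 113 and 99.1 in macrophages and 0.741 and 1.29 in endothelium, whereas Ifi213 had 142 and 124 in macrophages and also 52.1 and 49.7 in endothelium. Both were near 0 in glia, with 0.474 and 0.139 CPM for Ifi209 and 1.02 and 0.762 for Ifi213. Trim30a, a regulator of inflammatory signalling, had 261 and 333 CPM in dendritic cells, 231 and 233 in macrophages, 27.5 and 28.5 in glia and 6.49 and 8.86 in neurons. Parp14, an ADP-ribosyltransferase, was highest in macrophages (214 and 199) and next in glia (171 in both). Xaf1, a pro-apoptotic protein, had 113 and 106 CPM in endothelium and 111 and 108 in glia, which overlap, and Ifi35 had 84.5 and 99.6 in endothelium and 54.1 and 41.6 in neurons.

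Counted by gene, the highest mean fell in dendritic cells for 11 members, in macrophages for 9, in endothelium for 9, in glia for 6, in T and NK cells for 4 and in mast cells for 1. The class at the top was the same in both libraries for 10 of the 11 dendritic members, 6 of the 9 of macrophages, 7 of the 9 of endothelium and 4 of the 6 of glia. The order of members within a class also differed. The 5 highest were Ifi27l2a, Bst2, Isg15, Psmb8 and Trim30a in macrophages, Iigp1, Bst2, Rsad2, Isg15 and Gbp7 in endothelium, Ifi27l2a, Psmb8, Isg15, Psmb9 and Irf7 in dendritic cells, and Ifi27l2a, Isg15, Bst2, Ifit3 and Parp14 in glia. In neurons they were Ifi27l2a, Bst2, Stat2, Ifi35 and Xaf1, at means of 149 down to 44.2 CPM. As a description over the 40 members, Spearman's rho of the mean levels was 0.144 between dendritic cells and glia, 0.391 between macrophages and glia and 0.960 between fibroblasts and mural cells, and between the 2 libraries of one class it was 0.638 for mast cells, 0.803 for T and NK cells and at least 0.913 for the others.

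Within classes, the clusters differed too. The 5 glial clusters ranged from 5104 and 5480 CPM in cluster 6, led by Nrn1, Gfra3 and Kcna1, to 1805 and 1763 in cluster 3, led by Fras1 and Grid1. Clusters 8 and 5, led by Fabp7 and Dbi, held 5292 and 4404 and 3818 and 3514, and cluster 1 held 2629 and 2245. Malat1, a nuclear RNA, had a mean of 61892 CPM in cluster 6, 54183 in cluster 8, 69149 in cluster 5, 98706 in cluster 1 and 121866 in cluster 3, so the clusters with the most Malat1 had the lowest member sums. The part of nuclear RNA in this order was not tested. Ifi27l2a followed it, from a mean of 2068 CPM in cluster 6 to 278 in cluster 3, but Stat2 did not, at 52.2 and 64.3.

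Neuron clusters 9 and 13 had a median of 1837 and 2925.5 UMIs per cell, and cluster 17 had 22158. Cluster 9 made up 877 of the 1721 neurons. Malat1 had a mean of 5654 CPM in cluster 9, 21196 in cluster 13 and 76700 in cluster 17, so cluster 9 was poor in this nuclear RNA. What its barcodes hold was not tested. Cluster 17 held 488 and 404 CPM of the members, below 1356 and 1362 in cluster 9 and 1279 and 977 in cluster 13, and with cluster 17 as the only neurons the class mean was 446 CPM. Fibroblast cluster 0 (1712 and 1647) stood above cluster 10 (942 and 1054), and mural cluster 12 (1484 and 1637) above cluster 11 (578 and 518).

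**Figure D3:**
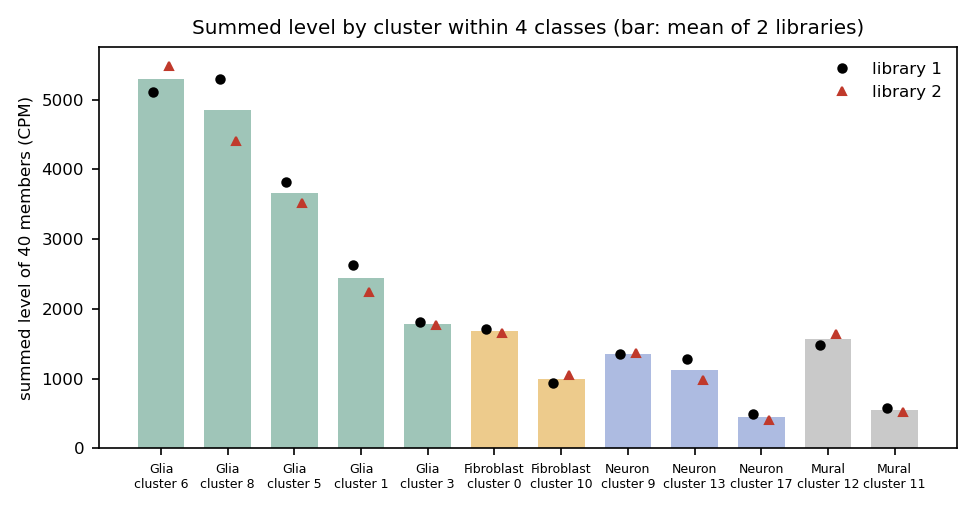
Summed level of the 40 members in CPM (vertical axis) by cluster (horizontal axis) within glia, fibroblasts, neurons and mural cells, as the mean of 2 libraries (bars) and the value of each library (points). Glial cluster 6 stands at 5104 and 5480 CPM and glial cluster 3 at 1805 and 1763.

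To compare cells of unequal depth, each cell was thinned to 1500 UMIs, and a cell was counted as high when the 40 members summed to at least 15 of these, or 1%. All kept cells had enough UMIs to be included. In all, 743 cells of library 1 (6.18%) and 625 of library 2 (5.36%) were high. Macrophages had 13.9% (95% Clopper-Pearson interval 11.9 to 16.1, counting error only) and 12.4% (10.4 to 14.5), and dendritic cells 13.1% (7.98 to 20.0) and 15.3% (10.2 to 21.8). Glia had 8.02% (7.27 to 8.83) and 6.92% (6.20 to 7.70), and endothelium 8.18% (6.54 to 10.1) and 6.12% (4.63 to 7.91). Fibroblasts had 2.78% and 2.25%, perineurial and epineurial cells 1.91% and 1.70%, mural cells 0.968% and 1.13%, and neurons 0.452% (0.123 to 1.15) and 0.837% (0.337 to 1.72). Macrophage intervals did not overlap those of glia, endothelium, fibroblasts or neurons in either library. The neuron share came from cells with a median of 2345 and 2370 UMIs against 7908 and 7865 in macrophages. It was the lowest of these classes in library 1, but that of myelinating Schwann cells was lower in library 2, with overlapping intervals. All 4 and 7 high neurons were in cluster 9, the neuron cluster with the fewest UMIs per cell. Fibroblast intervals lay above the neuron interval in library 1 (2.10 to 3.59) but touched it in library 2 (1.66 to 2.996). The part of free RNA in these shares was not tested. Without thinning, the share was 13.1% and 11.2% in macrophages, 7.62% and 6.61% in glia and 0.339% and 0.837% in neurons.

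**Figure D4:**
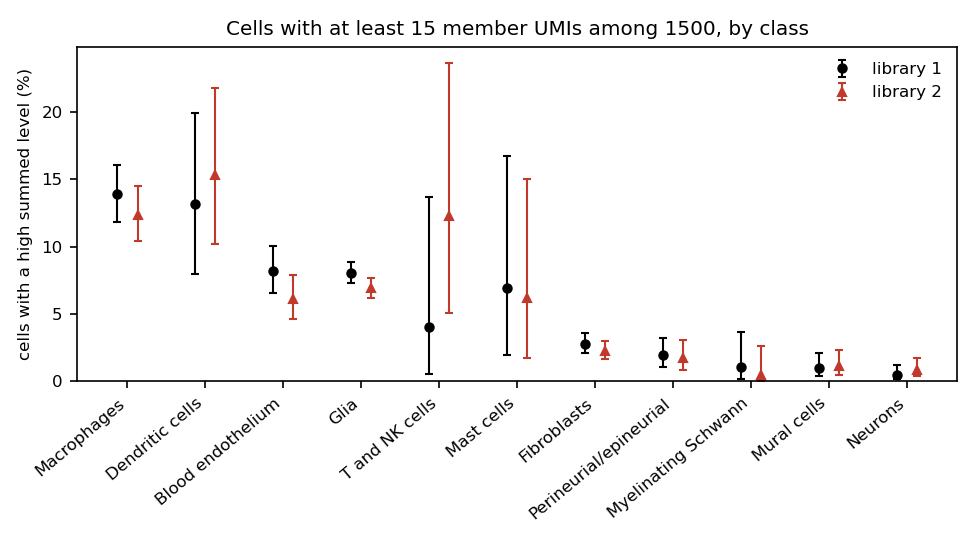
Share of cells, in percent (vertical axis), with at least 15 member UMIs among 1500, by class (horizontal axis) and library (points), with 95% exact binomial intervals (bars) that cover counting error only. Macrophages stand at 13.9% and 12.4%, glia at 8.02% and 6.92% and neurons at 0.452% and 0.837%.

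The share depends on 1 gene in part. Without Ifi27l2a the mean of the libraries was 9.14% in macrophages, 9.59% in dendritic cells and 4.07% in glia, so glia lost the larger portion of their high cells. The distributions differed as well: the median glial cell had 3 and 2 member UMIs among 1500, while the 95th percentile was 20 and 18 and the highest cell 119 and 84. In macrophages the median was 6 and 5 and the highest cell 66 and 56, so glia had the lower median and the single highest cells. Those come from 4761 and 4524 glial cells against 1066 and 1044 macrophages. At a limit of 2%, the mean share was larger in macrophages, at 3.07%, than in glia, at 2.35%. Cells close to the limit, within 3 UMIs below it, numbered 134 and 124 in glia and 75 and 55 in macrophages. By cluster, 14.3% and 15.5% of glial cluster 6 was high and 2.73% and 2.29% of glial cluster 3. In neuron cluster 17, 0 of 158 and 0 of 148 cells were high, which allows shares of up to 1.90% and 2.03% when 3 cells of the total are taken as the limit, or 2.31% and 2.46% by the exact Clopper-Pearson interval.

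High cells were then compared with the other cells of their own class, to see which further members rise with a core of 11 members (Ifit1, Ifit2, Ifit3, Ifit3b, Isg15, Rsad2, Cmpk2, Usp18, Oasl2, Irf7 and Rtp4). A cell was core-high when it had UMIs of at least 3 core genes and a core share of at least 0.2% among the UMIs used for clustering, and levels were read from the remaining UMIs. Core-high cells made up 18.0% and 14.9% of macrophages, 18.9% and 17.01% of endothelium, 10.5% and 9.53% of glia and 4.31% and 4.66% of fibroblasts, and these 4 classes had at least 50 such cells in each library. In glia, core-high cells had a median of 6511 and 6609 UMIs and the others 5313 and 5388, so depth moved with the choice there, and in endothelium 8285 and 8015.5 against 6643 and 6755.5. In macrophages the medians were 8322 and 7562 against 7803 and 7924. Glia and fibroblasts also pool clusters of unlike core level, such as fibroblast clusters 0 and 10 at means of 554 and 201 CPM. Cxcl13, a top gene of cluster 10, had a mean of 1.04 CPM in core-high fibroblasts against 93.8 in the others. Malat1 had 70088 and 75980 CPM in core-high glia against 78608 and 84187. The part of cluster make-up in the differences below was not tested.

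The core members are given as a description, since they chose the cells. Ifit3 had 1302 and 1496 CPM in core-high glia against 71.8 and 68.0 in other glia, and 1651 and 1785 against 28.9 and 26.8 in fibroblasts. Isg15 had 2237 and 1847 CPM in core-high fibroblasts and 52.9 and 57.3 in the others. Ifit2 had 70.8 and 82.6 CPM in core-high glia against 35.2 and 34.5 in other glia, but 645 and 530 against 24.5 and 23.01 in macrophages, 264 and 316 against 27.8 and 31.6 in endothelium and 118 and 161 against 13.8 and 13.9 in fibroblasts. Its neighbour Ifit1 had 730 and 707 CPM in core-high glia against 41.4 and 35.8.

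The other 29 members did not choose the cells and were tested in edgeR over 14369 genes. All 29 rose in core-high macrophages (background 2.74% higher, 2.51% lower), 27 in endothelium (2.44% and 2.44%), 26 in fibroblasts (1.58% and 1.70%) and 25 in glia (1.84% and 1.98%), and none fell, also in DESeq2. At an unadjusted p under 0.05 the 1 lower value was that of Ifi213 in glia. The median log2 difference of the 29 was 2.93 in fibroblasts (-0.18 over all genes), 2.24 in glia (-0.09), 1.71 in macrophages (-0.11) and 1.40 in endothelium (-0.03), and 25 of the 29 rose in all 4 classes. The exceptions were Oas2, Oas3, Ifi209 and Ifi213, each of which missed the test in at least 1 class. Over all genes tested, at most 1.58% can have risen in all 4 classes, since 1.58% rose in fibroblasts. Summed, the 29 members stood at 8884 and 8458 CPM in core-high glia against 1954 and 1804 in other glia, or 4.55-fold and 4.69-fold. The sums were 6523 and 5409 against 864 and 783 in fibroblasts, 8498 and 7939 against 3278 and 3022 in macrophages and 5665 and 5698 against 2447 and 2288 in endothelium.

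Iigp1 had the largest rise of the 29 in glia and macrophages and 1 of the smallest in endothelium. It had 266 and 299 CPM in core-high glia against 14.9 and 14.97 in the others, a log2 difference of 4.21 ± 0.11 (adjusted p = 3.8e-48, edgeR), and 444 and 327 against 42.5 and 41.0 in macrophages (3.18 ± 0.13). In fibroblasts it had 701 and 507 against 26.2 and 18.7 (4.65 ± 0.14). Endothelium had 1016 and 866 CPM in core-high cells, but already 490 and 456 in the others (0.96 ± 0.08, adjusted p = 3.1e-17). Endothelial cells outside the core-high set thus held more Iigp1 than core-high glia did.

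Zbp1 rose in all 4 classes, from 3.16 in both libraries of other endothelial cells to 40.9 and 51.5 CPM in core-high ones (3.80 ± 0.33, adjusted p = 4.1e-16, edgeR), and from 9.53 and 9.62 to 126 and 119 in glia (3.65 ± 0.13). Trim30a, low in glia as a class, had 138 and 153 CPM in core-high glia against 12.5 and 13.6 (3.45 ± 0.12). The immunoproteasome subunits rose less: Psmb8 by 1.84 ± 0.07 in glia, 2.29 ± 0.14 in fibroblasts and 0.89 ± 0.09 in macrophages. Ifi27l2a, the most abundant member, rose by 2.02 ± 0.07 in glia and 0.74 ± 0.07 in macrophages. Ifi209 and Ifi213 rose in macrophages by 2.21 ± 0.12 and 2.05 ± 0.10, but neither had a UMI in core-high glia, where 3 UMIs would be 1.70 and 1.94 CPM. Both are thus members that stayed near 0 in glia whether or not the core was high.

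**Figure D5:**
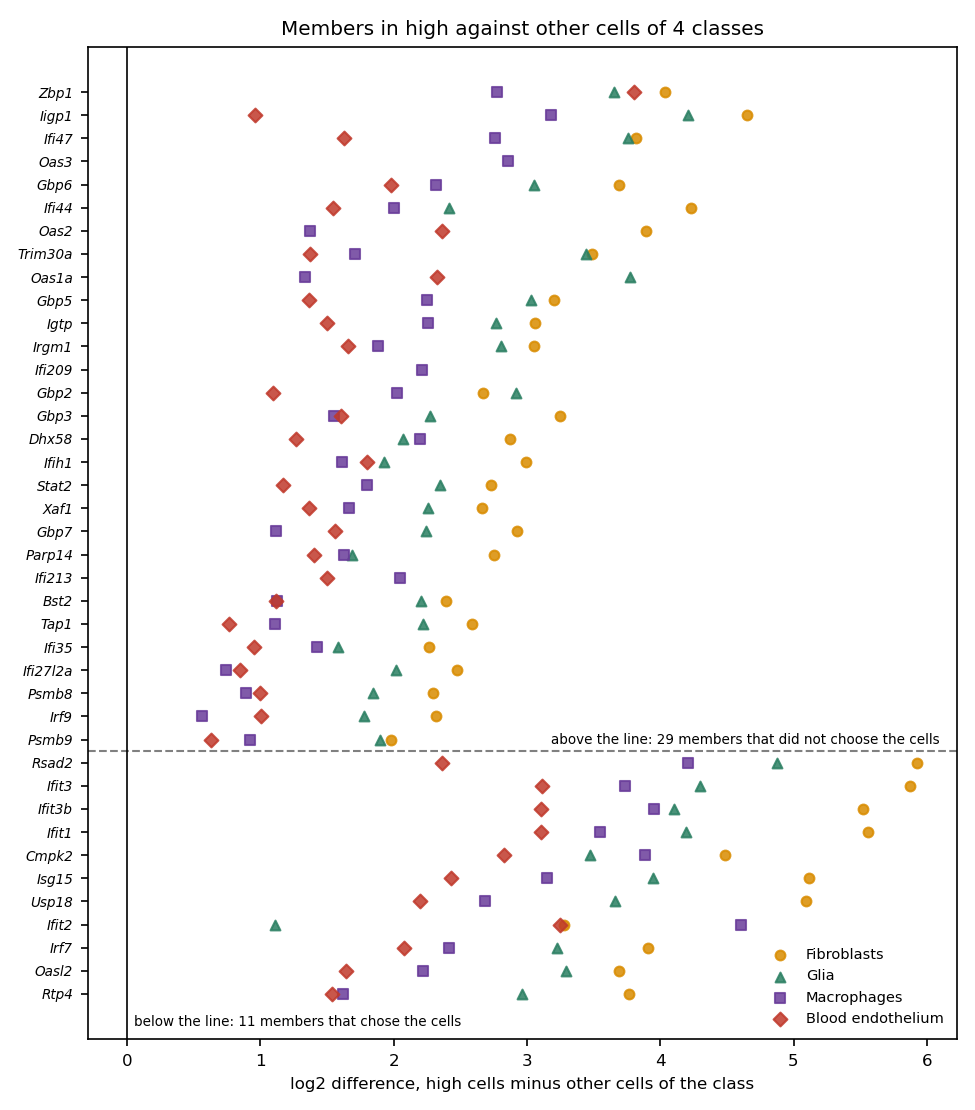
Log2 difference between core-high and other cells of a class (horizontal axis) for each member (rows) in fibroblasts, glia, macrophages and blood endothelium (symbols); members with under 3 UMIs in any of the 4 sums of a class are not drawn there. Members above the dashed line did not choose the cells, and Iigp1 lies at 0.96 in endothelium and at 4.65 in fibroblasts.

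The difference between core-high and other cells was compared between classes as an interaction in the same edgeR fit. Of the 29 members, 22 rose less in endothelium than in fibroblasts (background 1.04% lower, 0.633% higher) and 19 less than in glia (1.61% lower). The 1 member with a larger value in endothelium than in glia (0.585% higher) was Ifi213, which had no UMI in core-high glia, so that its fitted value depends on the prior count. Against macrophages, 3 rose less in endothelium (0.926% lower, 0.592% higher): Iigp1, Ifi47 and Stat2. That count was 5 with DESeq2 size factors, with all UMIs or at a core share of 0.1%, 7 with doublets kept and 8 without the shared barcodes. None rose more there in edgeR or DESeq2, though 4 did at an unadjusted p under 0.05 (Zbp1, Oas1a, Gbp7 and Irf9) and 1 passed the test with all UMIs or at a core share of 0.1%. Fibroblasts had the larger rise for 21 members against macrophages (0.772% higher, 0.494% lower) and for 6 against glia (0.327% higher, 0.320% lower), which were Parp14, Ifih1, Gbp3, Gbp7, Ifi35 and Ifi27l2a. Glia had the larger rise for 15 against macrophages (1.18% higher), and the 1 smaller value (0.759% lower) was again that of Ifi213. Starting levels differed as well: the 29 members summed to 864 and 783 CPM in other fibroblasts, 1954 and 1804 in other glia, 2447 and 2288 in other endothelial cells and 3278 and 3022 in other macrophages. The cut on the core share was the same in every class, so the contrast in the core itself was unlike. Core members summed to 36.29-fold and 34.07-fold the level of the other cells in fibroblasts and 13.91-fold and 14.9-fold in glia. Those folds were 9.315 and 9.095 in macrophages and 5.316 and 6.169 in endothelium. The part of this choice in the differences between classes was not tested.

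Dissociation genes and markers of other cell types also differed between core-high and other cells in some classes. The 20 dissociation genes summed to 4259 and 3890 CPM in core-high glia against 4015 and 3812 in other glia, and to 17290 and 19004 against 19628 and 19650 in endothelium, where 1 of the 20 was higher and 10 lower (2.44% of all genes tested in each direction). They summed to 16184 and 16627 CPM against 13830 and 14692 in fibroblasts, where 3 were higher (1.58%) and none lower, and to 17073 and 18414 against 16700 and 16631 in macrophages, where 2 were higher (2.74%) and none lower. The 11 macrophage markers summed to 67.9 and 31.6 CPM in core-high glia against 76.6 and 49.8, and none of the 11 passed the test in glia, endothelium or fibroblasts. Of 17 neuron markers, 6 were lower in core-high glia (1.98% of all genes tested) and none higher. In macrophages, 11 markers of non-myelinating Schwann cells summed to 539 and 808 CPM in core-high cells against 444 and 332 in the others, where Scn7a and Csmd1 were higher, and the mast cell markers to 153 and 94.9 against 73.6 and 70.96. The part of these genes in the members' differences was not tested.

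Genes of the pathway upstream of the members were read from lists chosen for this purpose. Of 21 interferon ligand genes, Ifng was the one with enough UMIs to be tested, with 181 in all kept cells and a mean of 279 ± 24.2 CPM (SD, n = 2) in T and NK cells, where it was higher, and under 0.5 in each other class. Ifnb1 had 19 UMIs in all kept cells. The receptor subunits were found in every leading class: Ifnar1 had a mean of 115 CPM in macrophages, 92.0 in endothelium, 84.0 in dendritic cells, 35.1 in glia and 34.2 in neurons, and Ifnar2 had 286, 214, 135, 107 and 31.9 in the same order. The shares of all genes tested that were higher, 30.2% in macrophages, 22.6% in dendritic cells, 28.6% in endothelium and 32.6% in glia (16.8% lower), stand beside the counts that follow. Of 6 receptor genes, 5 were higher in macrophages and 5 in dendritic cells, 3 in endothelium, and 1 higher and 3 lower in glia. Of 15 signalling genes, 11 were higher in macrophages, 9 in dendritic cells and 8 in endothelium, whereas 13 were lower in glia. Of 15 genes of nucleic acid sensing, 14 were higher in macrophages, 9 in dendritic cells and 8 in endothelium, and 2 were higher and 6 lower in glia.

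In core-high cells, none of the receptor genes passed the test in glia or fibroblasts (edgeR). Over all genes tested, 1.84% were higher and 1.98% lower in glia, and 1.58% and 1.70% in fibroblasts. At those shares, few or no calls are expected from so short a list. Ifngr1 and Ifnar2 were lower in core-high macrophages, where 2.51% of all genes tested were lower. Of 104 other interferon-stimulated genes tested, 93 were higher in macrophages as a class, 82 in dendritic cells, 82 in endothelium, 32 in glia (33 lower) and 3 in neurons (67 lower). Over all genes tested, 32.6% were higher and 16.8% lower in glia and 35.2% and 23.6% in neurons, so the count of higher genes in glia is near that background. In core-high cells 83 of these rose in macrophages (2.74% of all genes), 77 in fibroblasts (1.58%), 76 in endothelium (2.44%) and 65 in glia (1.84%). Oasl1 was among the genes with the largest rise outside the 40 in 3 classes, for example from a mean of 6.001 to 84.5 CPM in endothelium, and Cxcl10, a chemokine that draws T cells, rose from 9.25 to 361 CPM in core-high fibroblasts (5.25 ± 0.24, adjusted p = 9.3e-32, edgeR). The promoter windows of 43 of 88 matched genes of this wider list, or 48.9%, held the ISRE letters.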

How the data were processed

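The authors deposited raw UMI counts per gene and cell as 1 table per library, made with Cell Ranger 6.1.2 and mm10 per the submitters' processing notes. All values were whole numbers, and every barcode had at least 1501 UMIs and under 10% mitochondrial UMIs. The 2 libraries are replicates 1 and 2 of 1 group.

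Scrublet calls (564 and 624 cells, in scanpy 1.11.5) and 1 barcode under 500 genes were removed. The UMIs of every cell were divided by binomial draws with probability 0.5. One portion, without the members and the other interferon genes, gave the clusters (3000 variable genes, 30 components, 15 neighbours, Leiden resolution 1). Clusters were named from 21 marker lists at a score of at least 0.8 with at least 3 markers detected. The other portion was summed per library and class and tested in edgeR 4.0.16 (R 4.3.3; filterByExpr, TMM, glmQLFit, threshold 0.05). The class fit had 10 residual degrees of freedom and the core-high fit 7. The library number was kept as a block because each library holds every class and state. DESeq2 1.42.0 and the other alternatives are listed in the closing section. The fits were tested on simulated data.

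The rule for named genes covers all members, the 5 of highest level per class and the 10 with the largest changes per contrast. It also covers the 10 outside genes of largest change per core-high contrast, of which Oasl1, Cxcl10 and Cxcl13 are given as examples. The members and lists were chosen with earlier results of these data known. Some genes stand in 2 of the lists, and 1 listed gene is not reported here. Some other interferon-stimulated genes, such as Mx1 and Mx2, were not analysed here. Gene positions come from GENCODE on mm10 coordinates and promoters from RefSeq.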

Additional observations from a re-analysis of the deposited data

Results flagged for a closer look

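These values were flagged because the rise of a member in core-high cells differed between 2 classes by an interaction test in edgeR (Benjamini-Hochberg over all genes tested); the largest per pair of classes is given, among members with at least 3 UMIs in every sum. Iigp1 rose less in endothelium than in fibroblasts by -3.69 ± 0.15 (log2, SE, adjusted p = 6.3e-34), than in glia by -3.25 ± 0.14 (2.5e-33) and than in macrophages by -2.22 ± 0.15 (3.7e-20). In other endothelial cells it already stood at 490 and 456 CPM, against 14.9 and 14.97 in other glia. Parp14 rose more in fibroblasts than in glia by 1.07 ± 0.18 (5.8e-05). Oas2 rose more in fibroblasts than in macrophages by 2.52 ± 0.50 (adjusted p = 5.1e-04), with 6 and 14 UMIs in core-high fibroblasts. Oas1a rose more in glia than in macrophages by 2.44 ± 0.39 (7.7e-06), with 22 and 29 UMIs in core-high glia, and its end sequence is shared with Oas1g.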

How the results depend on the processing

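Of the values and counts that answer a comparison, 515 stayed within their limits under the alternatives and 69 moved. The 515 include shares and summed levels with a library left out. Those could not move, because their limit was the SD of the 2 libraries. Of the calls of single members, 16 were lost under an alternative and none reversed. Leaving out a library could not reverse such a call, since the members named had the same direction in both libraries. Counts of members called in a class moved as follows. With DESeq2, endothelium had 2 lower, fibroblasts 21 lower, glia 7 lower and perineurial cells 1 higher. With doublets kept, endothelium had 2 lower, dendritic cells 2 lower, mast cells 1 lower, and neurons and perineurial cells 1 higher each. At resolution 0.5 or 2, dendritic cells had 3 lower and perineurial cells 1 higher, and at resolution 2 mast cells had 1 lower and mural cells 1 higher. With no filter, fibroblasts had 8 higher, with all UMIs perineurial cells had 24 lower, and with deep neurons only neurons had 1 higher. For core-high cells, the members rising less in endothelium than in macrophages were 5 with DESeq2 size factors, with all UMIs and at a core share of 0.1%, 7 with doublets kept and 8 without shared barcodes, and 1 rose more with all UMIs or at 0.1%. Between glia and macrophages 2 were lower with all UMIs and 0 at a core share of 0.5%. Scaling by total UMIs moved the median of all genes in dendritic cells from -0.11 to -0.52 on the log2 scale, where 26 members were higher and 7 lower. Without the replicate block, 2 members rose more in fibroblasts than in glia, and no other count moved by over 1.5 times.

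The share of high cells was set by the limit. At 0.5% it was 35.9% in macrophages, 29.9% in dendritic cells, 16.5% in glia, 26.6% in endothelium, 6.24% in fibroblasts and 1.93% in neurons, and at 2% it was 3.07%, 0.672%, 2.35%, 1.02%, 0.764% and 0.176%. With core members only it was 2.78%, 0.672%, 1.40%, 1.03%, 0.961% and 0.120%. Without Ifi27l2a, Bst2, Psmb8 and Psmb9 it was 6.39% in macrophages, 7.21% in dendritic cells, 3.3995% in glia, 4.77% in endothelium and 1.45% in fibroblasts, and without Ifi27l2a 9.14%, 9.59% and 4.07% in the first 3, 1.97% in fibroblasts and 0.356% in neurons. Dendritic cells had 8.50% with doublets kept and 10.9% at resolution 0.5, and neurons 0.153% thinned to 3000 UMIs and 0.117% with doublets kept. Classes with doublets kept were not the same cells. Neurons then numbered 445 and 426 against 885 and 836 in the main setting, and a further class of 443 and 413 cells was named erythroid. Dendritic cells then numbered 343 and 368 against 137 and 163. At 0.5%, endothelium thus stood above glia, and at 2% glia stood above dendritic cells and endothelium. Summed levels moved to 3853, 4155 and 4486 CPM in dendritic cells (doublets kept, resolution 0.5, resolution 2), 1588 in fibroblasts and 1097 in mural cells (doublets kept), 939.8, 1133 and 940.8 in myelinating Schwann cells (all UMIs, doublets kept, resolution 0.5) and 446 in neurons (deep neurons only). The causes were not tested. Leaving out a library leaves no residual degrees of freedom, so values only were made: the share ran from 12.4 to 13.9% in macrophages and from 6.92 to 8.02% in glia. The alternatives without shared barcodes, with deep neurons only and without Ifi27l2a were chosen after seeing the data. Small classes limit the text: mast cells, T and NK cells and dendritic cells rest on under 170 cells per library.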

Other observations

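Clusters that received no class name also held the members. Cluster 15 held 3863 and 3483 CPM summed over the 40 members, and cluster 19 held 3604 and 3254. Proliferation markers scored highest in cluster 15, but of its top 10 genes only Top2a is on that list. Its top genes were led by Retnla, Lyz1 and Cd209a, the last a dendritic cell marker here, and included Ear2 and Ccr2, which are monocyte markers here. Macrophage markers scored highest in cluster 19, at 17687 and 17925 CPM against 18237 and 17850 in the macrophage class, and it stayed unnamed because 1 monocyte marker and 0 macrophage markers were among its top 10 genes, which Folr2 led. In cluster 19, 4.84% of 62 and 1.52% of 66 cells were high, against 13.9% and 12.4% of the macrophage class. Cluster 14 held 1320 and 917 CPM. Lymphatic endothelium, with 36 and 29 cells, was too small to be tested and held 2876 and 2614 CPM, against 4544 and 4123 in blood endothelium.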
